A study of Mus musculus with 8 samples.

Results

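Neurotrophins are secreted growth factors best known for the survival and wiring of neurons, and 7 genes of this ligand and receptor family were followed here among the 53697 genes of the count table. They were chosen by name from the gene symbols: the receptors Ntrk2 (TrkB), Ntrk3 (TrkC) and Ngfr (the p75 neurotrophin receptor), the sorting receptor Sort1 (sortilin), and the ligands Bdnf, Ntf3 (neurotrophin-3) and Ntf5 (neurotrophin-4/5). Each mature ligand dimer binds a Trk receptor tyrosine kinase, with BDNF and neurotrophin-4/5 the ligands of TrkB and neurotrophin-3 that of TrkC, and the bound Trk signals through adaptor proteins to the Ras, PI3K and phospholipase C gamma pathways. All mature neurotrophins also bind p75, a receptor without kinase activity, and the uncleaved pro-forms bind p75 together with sortilin. In the mammary gland, p75 is a known antigen of myoepithelial and some stromal cells, and TrkB and TrkC are studied as growth and survival receptors in carcinomas.

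RNA was sequenced from sorted mammary tumor cells of 4 mice of the MMTV-PyMT model, in which the polyoma middle T oncogene is driven in the mammary epithelium by a viral promoter and tumors arise spontaneously. Mice 1 and 2 were PyMT-Dll1GFP, with a knock-in reporter at the gene of the Notch ligand Dll1, and mice 3 and 4 were PyMT-Dll1mCh, with a BAC-based mCherry reporter. From each mouse 1 library was made of reporter-positive (Dll1+) and 1 of reporter-negative (Dll1-) cells, after cells with CD45, CD31 or TER119 had been removed, so that 8 libraries in 4 groups of 2 formed 4 pairs. The study asked what distinguishes Dll1+ from Dll1- tumor cells. All 4 mice carried the PyMT transgene and a reporter, and the ages of these mice are not given in the sources used here. The gate does not remove fibroblasts, pericytes or other stromal cells that lack these 3 antigens.

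Total counts ran from 27301396 to 123907626 per library, and 3 counts corresponded to 0.0242 to 0.110 CPM, counts scaled to a fixed library total after TMM normalization. Dll1 itself was higher in Dll1+ cells of each mouse, 7.46-fold over the 4 mice (adjusted p = 0.00651). The luminal markers summed to 5676 to 9298 CPM in the 8 libraries. The Dll1- libraries of mice 3 and 4 stood apart by markers of cells outside the epithelium: the 10 fibroblast markers, among them Col1a1 and Pdgfra, summed to 8425 and 24055 CPM there, against 3710 and 3849 CPM in the Dll1+ libraries of the same mice and 1250 to 1465 CPM in the 4 PyMT-Dll1GFP libraries. The 10 pericyte markers summed to 769 and 958 CPM, against 302 and 269 CPM and 235 to 285 CPM. Notch3 and Mcam, at 102 to 163 and 71.9 to 145 CPM over the 8 libraries, made up most of the lower pericyte sums. Rgs5 alone stood at 250 and 294 CPM in Dll1- and 34.5 and 35.6 CPM in Dll1+ cells of mice 3 and 4. In the PyMT-Dll1GFP libraries it stood at 7.49 to 12.0 CPM. Endothelial and immune markers were also highest in the Dll1- libraries of mice 3 and 4, at 203 and 450 CPM and at 371 and 406 CPM. None of the 10 genes of the fibroblast, pericyte or endothelial list was at 0 counts in any library.

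The family spanned a wide range of levels. Per kilobase of the longest annotated transcript, the mean over the 8 libraries was highest for Sort1, at 22.2 ± 5.31 CPM per kb (SD, n = 8), then Ntrk2 at 9.79 ± 3.54, Ntf5 at 4.63 ± 1.38, Ngfr at 0.683 ± 1.11, Bdnf at 0.486 ± 0.511, Ntf3 at 0.169 ± 0.341 and Ntrk3 at 0.153 ± 0.163. The ranges of Sort1, from 16.1 to 30.7 CPM per kb, and of Ntrk2, from 5.16 to 14.7, did not overlap, while those of Ntrk2 and Ntf5 did, and the 4 lowest genes could not be ordered beyond their spread. The order depends on the length used: with the median transcript length Ntrk2 came to 29.7 and Ntrk3 to 3.05 CPM per kb, since many short transcripts are annotated for these genes (Ntrk3 has a longest transcript of 19703 and a median of 990.5 bases).

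Promoter sequences of 4 of the 7 genes were held in the RefSeq promoter table for GRCm38.p6, and are shown because Bdnf, Ngfr and Ntrk2 were higher together in PyMT-Dll1mCh mice and most Ntf3 counts lay in the Dll1- libraries of those mice. Each line is the stretch of the 250 bases before the most 5′ listed start that lies outside the annotated gene, written 5′ to 3′ on the gene's strand, with every CG dinucleotide in capitals.
Bdnf (chr2:109674450-109674699, plus strand): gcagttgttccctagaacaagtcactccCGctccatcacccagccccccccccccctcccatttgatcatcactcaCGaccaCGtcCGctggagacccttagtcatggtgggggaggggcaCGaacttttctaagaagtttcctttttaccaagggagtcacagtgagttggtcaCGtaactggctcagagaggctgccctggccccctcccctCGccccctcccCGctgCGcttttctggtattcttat
Ngfr (chr11:95587736-95587948, minus strand): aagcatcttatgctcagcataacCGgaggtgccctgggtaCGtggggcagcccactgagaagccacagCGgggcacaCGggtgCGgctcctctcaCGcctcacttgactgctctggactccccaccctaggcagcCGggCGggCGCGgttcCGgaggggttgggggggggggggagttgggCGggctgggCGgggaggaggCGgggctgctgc
Ntf3 (chr6:126166911-126166994, minus strand): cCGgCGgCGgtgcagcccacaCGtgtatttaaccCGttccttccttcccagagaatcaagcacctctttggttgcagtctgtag
Ntrk2 (chr13:58806319-58806568, plus strand): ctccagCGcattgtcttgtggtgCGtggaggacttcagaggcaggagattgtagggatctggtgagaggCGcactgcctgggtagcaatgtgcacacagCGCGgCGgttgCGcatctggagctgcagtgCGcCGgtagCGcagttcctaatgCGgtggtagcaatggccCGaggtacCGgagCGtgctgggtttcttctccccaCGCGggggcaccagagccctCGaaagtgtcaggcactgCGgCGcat
In the whole windows of 250 bases, the Ntrk2 promoter held 19 CG dinucleotides, a number reached by 19.7% of all 32851 promoters of the same length, and the Ngfr promoter 16, reached by 25.4%. The Ntf3 window held 11 and the Bdnf window 9, where the median promoter held 6. GC content was 70.4% for Ngfr, 62.8% for Ntrk2, 62% for Ntf3 and 58% for Bdnf, against a median of 52.4%.

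The core motif of RBPJ, the DNA-binding factor of Notch signaling (letters TGGGAA, searched on both strands, with no overlap counted against other motifs), was present once in each of the 2 Ntf3 windows and in 1 of the 7 Bdnf windows, and in 21.6% of all promoters. It was not in the Ngfr or Ntrk2 window. An AP-1 site (TGANTCA, in 6.75% of all promoters) and an NF-kB site (searched by name as a degenerate decamer, in 7.25%) were each found in 1 of the 7 Bdnf windows, and in no window of Ngfr, Ntf3 or Ntrk2. Such matches describe letters and not binding.

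Over the 4 mice, 2 of the 6 members that passed the filter on low counts differed between Dll1+ and Dll1- cells at an adjusted p under 0.05, Ntrk3 and Ntf5, both higher in Dll1+ cells. Over all 18322 tested genes, 6.98% were called higher and 7.04% lower. The median log2 fold change of the 6 members was 0.43, against -0.00 over all tested genes. Ntf3 did not pass the filter.

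**Figure D1:**
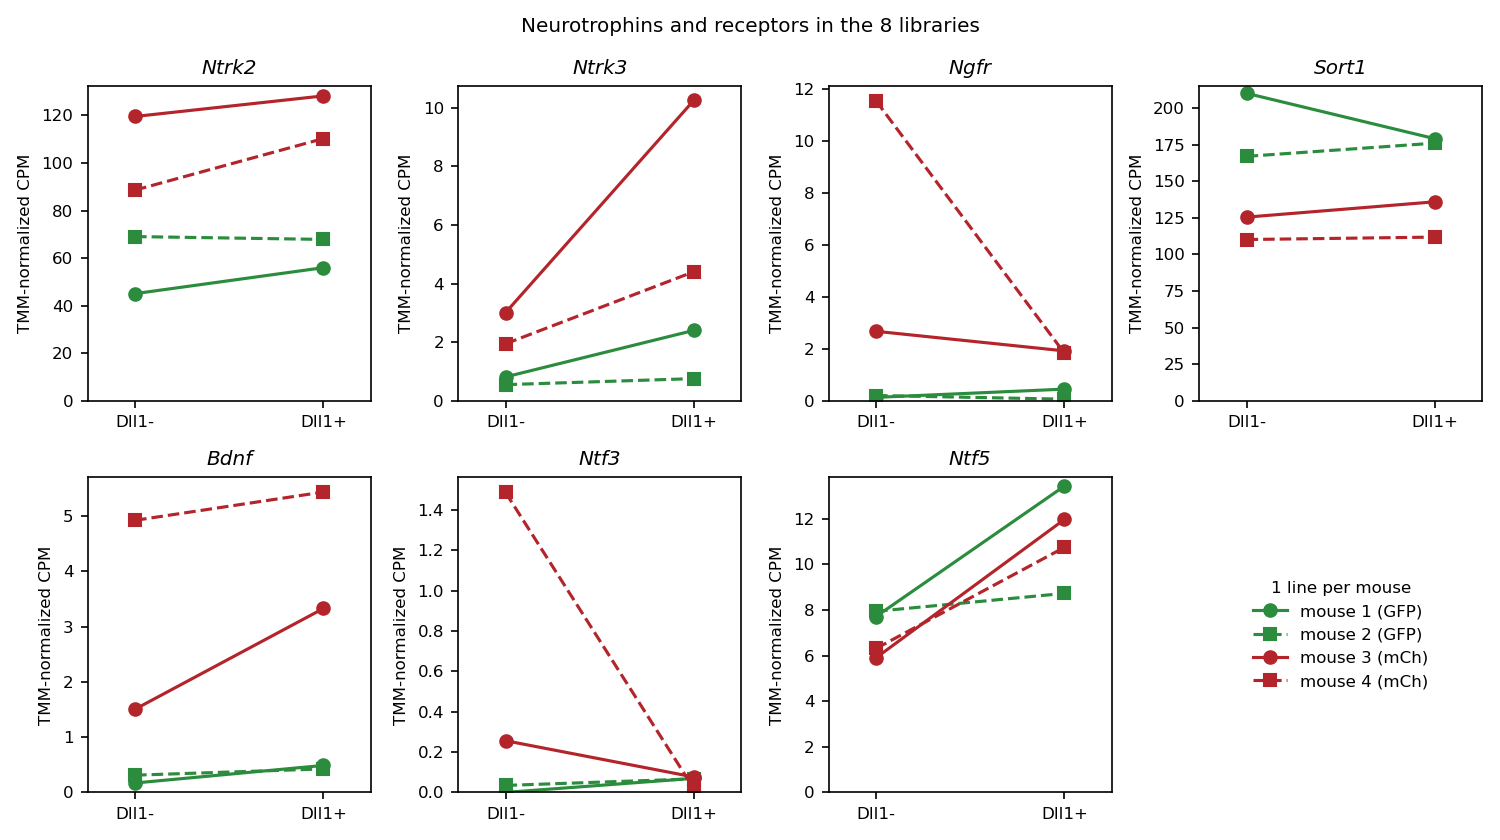
TMM-normalized CPM of the 7 genes (vertical axes, from 0) in the Dll1- and Dll1+ library of each mouse, with 1 line per mouse, green for PyMT-Dll1GFP and red for PyMT-Dll1mCh. Ntrk3 and Ntf5 go up in every mouse, Ntf5 without overlap between Dll1- and Dll1+ libraries, while Ngfr and Ntf3 peak in the Dll1- library of mouse 4 at 11.5 and 1.49 CPM.

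Ntrk3, the neurotrophin-3 receptor, lies on chr7:78175959-78738012 (minus strand, GRCm38). In Dll1- cells it stood at 0.819 and 0.555 CPM in mice 1 and 2 and at 3.01 and 1.95 CPM in mice 3 and 4. In the Dll1+ cells of the same mice it stood at 2.41, 0.760, 10.3 and 4.41 CPM. The Dll1+ library was thus the higher in 4 of 4 mice, although the ranges of the groups overlap because the mice differ. The fold change over the 4 mice was 2.46-fold (log2 1.30 ± 0.25 SE, adjusted p = 0.0261). The call was lost without mouse 1 (log2 1.23, adjusted p = 0.0981) and without mouse 3 (1.09, adjusted p = 0.141), and without the mouse in the model (1.48, adjusted p = 0.646). These counts were low, from 16 in the Dll1- library of mouse 2 to 672 in the Dll1+ library of mouse 3.

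Ntf5, a ligand of TrkB, lies on chr7:45413695-45417179 (plus strand). Its levels in Dll1- cells of mice 1 to 4 were 7.71, 7.94, 5.90 and 6.31 CPM. In Dll1+ cells they were 13.4, 8.72, 12.0 and 10.7 CPM. Every Dll1+ library was above every Dll1- library, with the smallest step in mouse 2. The fold change was 1.61-fold (log2 0.69 ± 0.16 SE, adjusted p = 0.0442). The call was lost without mouse 1 (log2 0.65, adjusted p = 0.143), mouse 3 (0.57, adjusted p = 0.173) or mouse 4 (0.66, adjusted p = 0.0879), and without the mouse in the model (0.69, adjusted p = 0.330).

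The summed markers of basal and myoepithelial cells moved with these 2 genes. The 10 markers, among them Krt5 and Krt14, were present in each library. Over the 4 mice their log2 fold changes were above 0 in 10 of 10, with a median of 1.18. Of them 5 were called higher and 0 lower, beside 6.98% and 7.04% of all tested genes. Single markers did not all rise in each mouse. In mouse 4 Acta2 fell from 213 to 172, Myh11 from 46.3 to 34.8 and Mylk from 48.8 to 25.4 CPM in Dll1+ cells. Mylk also fell in mouse 1, from 16.9 to 16.7 CPM, and Krt17 in mouse 2, from 15.3 to 14.7 CPM. The summed level of the 10 markers was 154 to 709 CPM in Dll1- and 248 to 1570 CPM in Dll1+ libraries. Within mice 1 to 4 the sum was 2.30, 1.61, 3.70 and 2.21 times as high in Dll1+ as in Dll1- cells, where Ntrk3 was 2.94, 1.37, 3.41 and 2.26 times as high and Ntf5 1.74, 1.10, 2.03 and 1.70 times as high. For these 3 quantities mouse 2 had the smallest and mouse 3 the largest step. In bulk libraries, more cells of a type and more RNA per cell cannot be told apart, and the part of basal cells in the difference was not tested.

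Bdnf, the ligand of TrkB best known for its activity-dependent expression in neurons, lies on chr2:109674700-109727007 (plus strand), where an antisense gene, Gm45346, overlaps it. It stood at 0.171, 0.312, 1.51 and 4.92 CPM in Dll1- cells of mice 1 to 4. It stood at 0.488, 0.425, 3.33 and 5.43 CPM in Dll1+ cells. The Dll1+ library was the higher in each mouse, but the step ranged from 1.10 to 2.86 times and the difference over the mice did not pass the threshold (log2 0.74 ± 0.28 SE, adjusted p = 0.130).

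Ntrk2, the receptor of BDNF and neurotrophin-4/5, lies on chr13:58806569-59133970 (plus strand). It was measured at 45.1, 69.1, 119.6 and 88.6 CPM in Dll1- cells of mice 1 to 4, and at 56.0, 67.9, 128 and 110 CPM in Dll1+ cells. The differences within mice were small beside those between mice, and 3 of 4 mice were higher in Dll1+ cells (log2 0.18 ± 0.07 SE, adjusted p = 0.168). The table counts whole genes, so forms of TrkB and TrkC with and without the kinase domain cannot be told apart, although 7 coding transcripts are annotated for Ntrk2 and 6 for Ntrk3. Both genes, like Bdnf and Sort1, overlap annotated genes on the opposite strand, and the strand setting of the counting is not given in the sources used here.

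Sort1, on chr3:108284082-108361511 (plus strand), was even between the cell states. Its levels were 210.0, 167, 125 and 110 CPM in Dll1- and 179, 176, 136 and 112 CPM in Dll1+ cells of mice 1 to 4. The difference over the 4 mice was within its error (log2 -0.00 ± 0.07 SE, adjusted p = 0.975).

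Ngfr, on chr11:95568818-95587735 (minus strand), had opposite directions among mice. Its Dll1- libraries held 0.136, 0.208, 2.67 and 11.5 CPM in mice 1 to 4. Its Dll1+ libraries held 0.453, 0.0671, 1.92 and 1.83 CPM. Mouse 1 was higher in Dll1+ cells, at 13 against 4 counts, and mice 2, 3 and 4 were lower, so that no difference passed the threshold (log2 -1.00 ± 0.70 SE, adjusted p = 0.370). Without mouse 4 the log2 fold change was -0.14 (adjusted p = 0.895).

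Ntf3, on chr6:126101412-126166910 (minus strand), was near the limit of detection in 6 of the 8 libraries. It had 0 and 1 counts in Dll1- cells of mice 1 and 2, and 2 and 3 in their Dll1+ cells. In mice 3 and 4 it had 32 and 45 counts in Dll1- cells and 5 and 1 in Dll1+ cells, which is 0.256 and 1.49 against 0.0763 and 0.0180 CPM. The Dll1- libraries of these 2 mice were thus the high ones. The ratio of Dll1- to Dll1+ was 3.36 in mouse 3 (exact 95% interval 1.30 to 11.0) and 82.6 in mouse 4 (14.1 to 3334), where the intervals cover counting error only.

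Fitted without the filter on low counts, over 34834 genes, Ntf3 was lower in Dll1+ cells of PyMT-Dll1mCh mice (log2 -3.61 ± 0.80 SE, adjusted p = 0.000267), a fitted value that depends on the prior count used for its lowest libraries. The ratios of the 2 mice, 3.36 and 82.6, lay far apart, and the p value of this fit is not read as a measure of that spread. Over the 4 mice the same fit gave -2.18 ± 1.34 (adjusted p = 0.530).

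**Figure D2:**
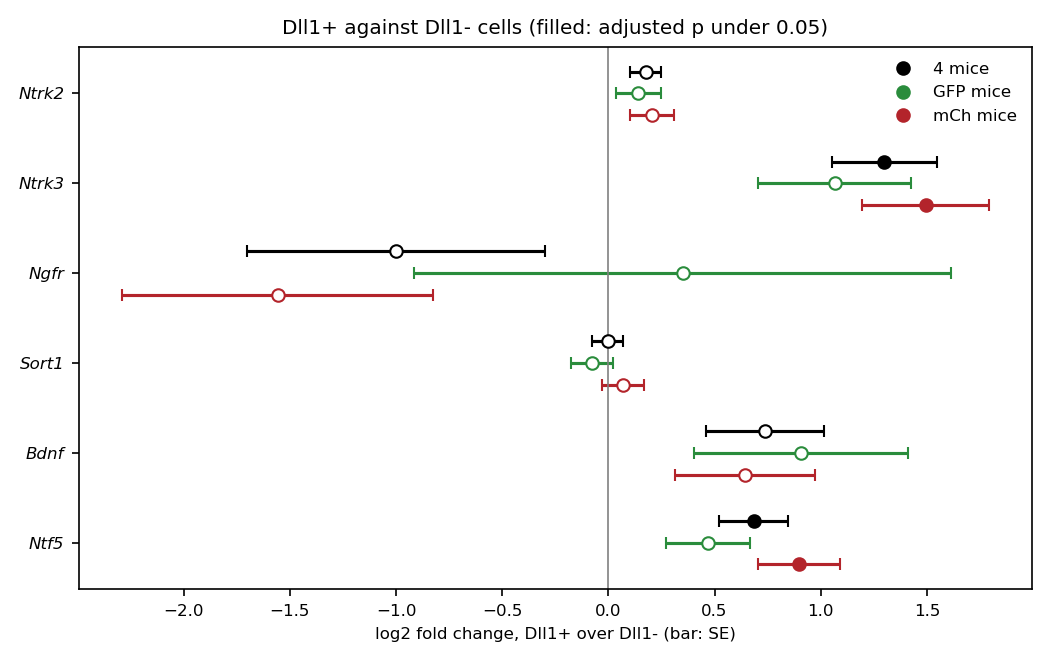
Log2 fold change of Dll1+ over Dll1- cells (horizontal axis) with its SE for the 6 tested genes, over the 4 mice (black) and in the mice of each reporter (green and red), filled where the adjusted p was under 0.05. Ntrk3 and Ntf5 are filled over the 4 mice, at 1.30 and 0.69, and in PyMT-Dll1mCh mice, and Ngfr has the widest errors.

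Each reporter gave its own estimate of the Dll1 effect. In PyMT-Dll1GFP mice 0 of the 6 members were called by edgeR, where 4.29% of all tested genes were called higher and 4.84% lower. DESeq2 also called 0, and 1 member, Ntrk3, had an unadjusted p under 0.05. There the log2 fold change was 1.07 for Ntrk3 (adjusted p = 0.124), 0.91 for Bdnf (adjusted p = 0.311) and 0.47 for Ntf5 (adjusted p = 0.197). In PyMT-Dll1mCh mice Ntrk3 (log2 1.49 ± 0.30 SE, adjusted p = 0.0301) and Ntf5 (0.90 ± 0.20 SE, adjusted p = 0.0369) were called higher and no member lower, beside 5.51% of all tested genes higher and 6.25% lower. Those 2 calls were lost when the reporter was fitted alone (adjusted p = 0.0705 and 0.0769) and when either mouse of that reporter was left out. For Ngfr the value in these mice was -1.56 (adjusted p = 0.244), and it was -0.50 without mouse 4 and -2.67 without mouse 3.

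The difference between the reporters in the Dll1 effect was called for 0 of the 6 members, with adjusted p from 0.580 to 0.899, and for 0.0655% of all tested genes as higher and 0.00546% as lower in PyMT-Dll1GFP mice. DESeq2 called 0 as well, and 0 had an unadjusted p under 0.05. The largest was that of Ngfr (log2 1.91 ± 1.46 SE, adjusted p = 0.664). A call in PyMT-Dll1mCh mice alone therefore does not show that Ntrk3 or Ntf5 behaved differently by reporter.

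Larger differences separated the mice of the 2 reporters. PyMT-Dll1mCh exceeded PyMT-Dll1GFP mice for 3 of the 6 tested members in Dll1- cells and fell short for 1, where 18.7% of all tested genes were called higher and 17.9% lower. The Dll1+ cells also gave 3 higher members and 1 lower, beside 15.2% and 15.4% of all tested genes. The median log2 fold change of the 6 members was 1.36 in Dll1- and 1.59 in Dll1+ cells, against 0.01 and 0.07 over all tested genes. Reporter line, mouse and preparation cannot be told apart in these comparisons of 2 mice with 2 mice. The edgeR fit also counted the 2 libraries of a mouse as independent. With the mouse as a random effect in limma, 3 members were called in Dll1- and 4 in Dll1+ cells, against 4 in each by edgeR.

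**Figure D3:**
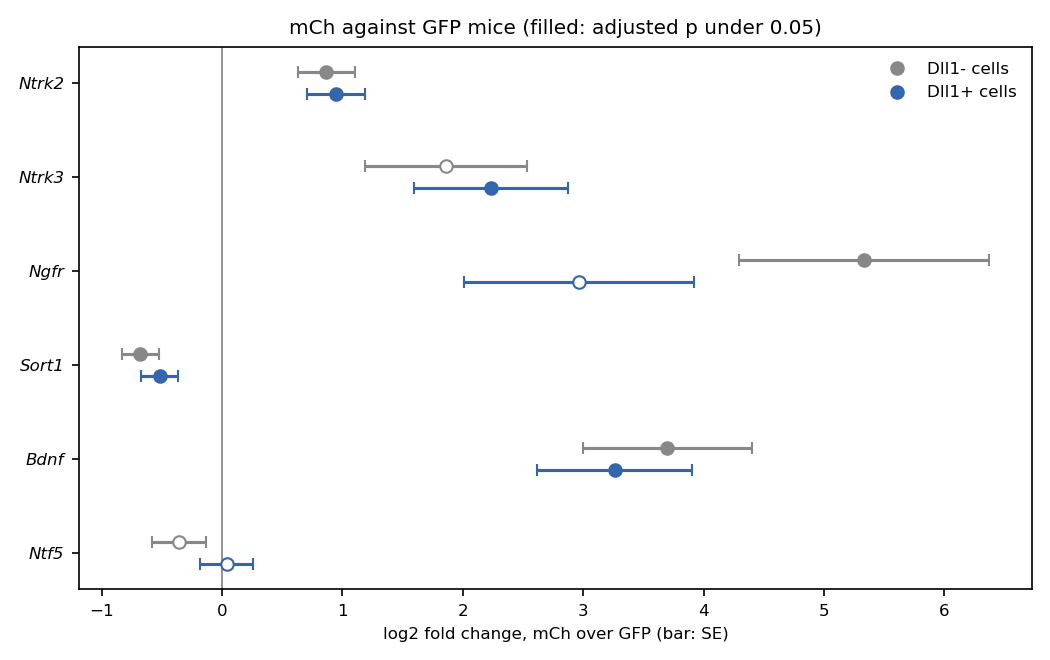
Log2 fold change of PyMT-Dll1mCh over PyMT-Dll1GFP mice (horizontal axis) with its SE, in Dll1- (grey) and Dll1+ cells (blue), filled where the adjusted p was under 0.05. Ngfr and Bdnf lie farthest to the right, at 5.33 and 3.70 in Dll1- cells, and Sort1 lies below 0 in both.

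Bdnf was called between the reporters in both cell states, as were Ntrk2 and Sort1. Its 4 PyMT-Dll1GFP libraries held 0.171 to 0.488 CPM and its 4 PyMT-Dll1mCh libraries 1.51 to 5.43 CPM, without overlap. It was 13.0-fold higher in Dll1- cells (log2 3.70 ± 0.70 SE, adjusted p = 0.00842) and 9.59-fold higher in Dll1+ cells (3.26 ± 0.64 SE, adjusted p = 0.0131). Leaving out mouse 3 or mouse 4 gave log2 values of 4.33 and 2.68 in Dll1- cells, with the call kept.

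Ngfr ranged from 0.0671 to 0.453 CPM in the PyMT-Dll1GFP libraries, which is 3 to 13 counts, and from 1.83 to 11.5 CPM in the PyMT-Dll1mCh libraries, again without overlap. The difference was 40.3-fold in Dll1- cells (log2 5.33 ± 1.04 SE, adjusted p = 0.00944). Without mouse 4, whose Dll1- library held the most Ngfr, it was 3.98 on the log2 scale (adjusted p = 0.0139), and with the mouse as a random effect in limma it was 4.43 (adjusted p = 0.0767). In Dll1+ cells the log2 difference was 2.96 ± 0.95 SE and did not pass the threshold (adjusted p = 0.0557).

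Ntrk2 was 1.82-fold higher in Dll1- cells of PyMT-Dll1mCh mice (log2 0.87 ± 0.24 SE, adjusted p = 0.0306) and 1.92-fold higher in Dll1+ cells (0.94 ± 0.24 SE, adjusted p = 0.0282), and the lowest PyMT-Dll1mCh library, at 88.6 CPM, was above the highest PyMT-Dll1GFP library, at 69.1 CPM. Ntrk3 was 4.71-fold higher in Dll1+ cells (log2 2.24 ± 0.64 SE, adjusted p = 0.0407), and in Dll1- cells its log2 difference of 1.86 ± 0.67 SE missed the threshold (adjusted p = 0.0706). Without mouse 3 the calls of Ntrk2 were lost in both states (adjusted p = 0.135 and 0.0782), as was that of Ntrk3 (adjusted p = 0.133).

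Sort1 went the other way, with 110 to 136 CPM in the PyMT-Dll1mCh libraries and 167 to 210.0 CPM in the PyMT-Dll1GFP libraries. It fell by 0.68 on the log2 scale in Dll1- cells (SE 0.15, adjusted p = 0.0142) and by 0.52 in Dll1+ cells (SE 0.15, adjusted p = 0.0408). Without mouse 4 the value in Dll1+ cells was -0.38 (adjusted p = 0.0880). Ntf5 was the tested member not called in either state, with log2 differences of -0.36 ± 0.23 SE (adjusted p = 0.253) and 0.04 ± 0.22 SE (adjusted p = 0.908).

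Leaving out either PyMT-Dll1GFP mouse, which leaves 1 mouse of that reporter, took the count of called members to 0 in both cell states. Without mouse 1 or mouse 2, Bdnf in Dll1- cells was 3.32 and 4.18 on the log2 scale (adjusted p = 0.137 and 0.104), and Ngfr 5.06 and 5.64 (adjusted p = 0.102 and 0.0880).

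Ntf3 had 77 counts in the Dll1- libraries of PyMT-Dll1mCh mice and 1 in those of PyMT-Dll1GFP mice, a ratio per total count of 28.9 (exact 95% interval 5.03 to 1155). In Dll1+ cells it had 6 and 5 counts, a ratio of 0.727 (0.185 to 3.01). Fitted without the filter, the difference in Dll1- cells was called (adjusted p = 9.97e-05), a p value with the limit given above for that fit.

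**Figure D4:**
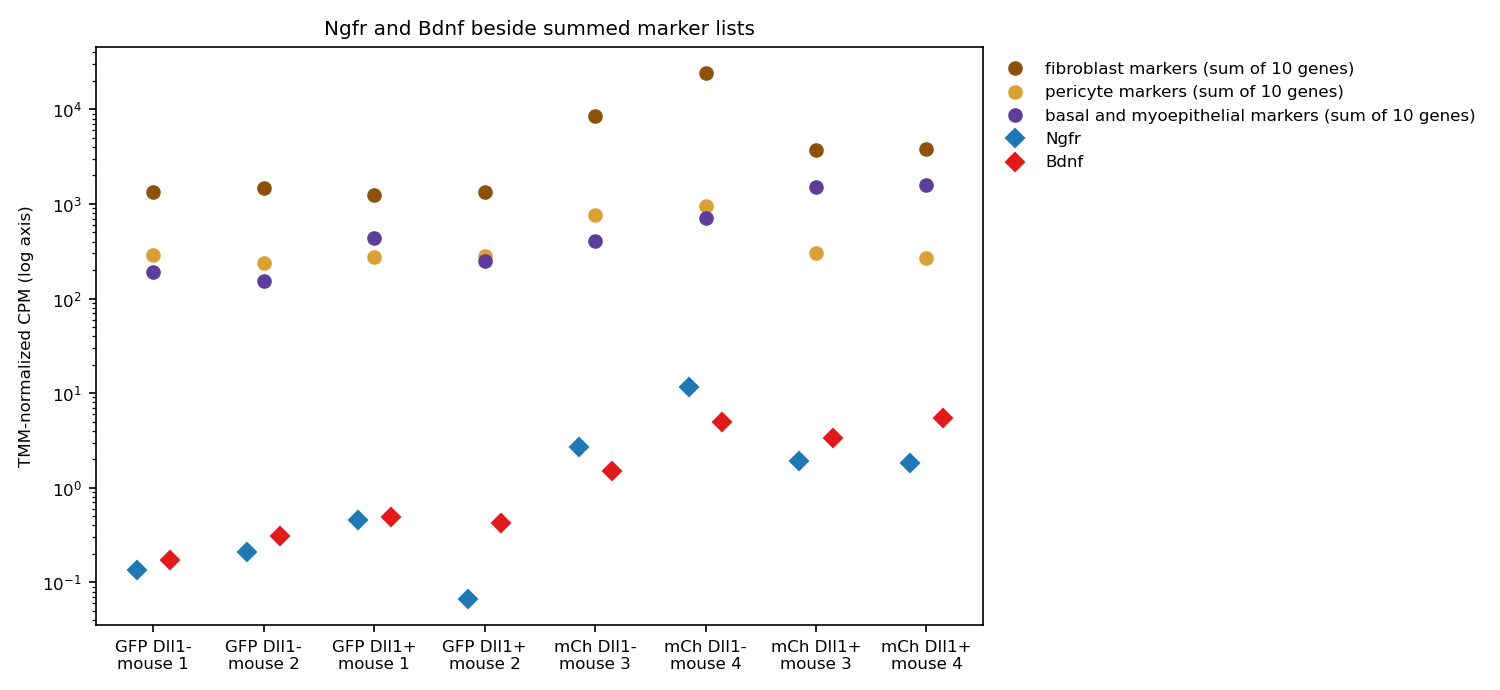
Summed CPM of 3 marker lists of 10 genes (circles) and CPM of Ngfr and Bdnf (diamonds) in the 8 libraries, on a log axis. The fibroblast and pericyte sums and Ngfr are highest in the Dll1- library of mouse 4 (24055, 958 and 11.5 CPM), while Bdnf is highest in the Dll1+ library of that mouse.

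Markers of stromal, endothelial and immune cells were, like Ngfr and Ntf3, highest in the Dll1- libraries of mice 3 and 4, but their steps differed in size. Between reporters, 18.7% of all tested genes were called higher and 17.9% lower in Dll1- cells. All 10 fibroblast markers and 8 of the 10 pericyte markers were called higher in Dll1- cells of PyMT-Dll1mCh than of PyMT-Dll1GFP mice, with median log2 fold changes of 3.65 and 4.08. The same comparison called all 10 endothelial and all 9 tested immune markers higher (median log2 2.60 and 2.12). Basal and myoepithelial markers differed between the reporters as well, with 4 of 10 called higher and 1 lower in PyMT-Dll1mCh mice in Dll1- cells (median log2 1.71) and 7 higher and 0 lower in Dll1+ cells (median log2 2.10). In Dll1- cells 9 of the 10 log2 values were above 0, and Trp63 went the other way. It stood at 30.2, 30.7, 7.94 and 12.5 CPM in mice 1 to 4. Acta2 stood at 15.9, 12.2, 191 and 213 CPM, Myh11 at 3.72, 2.74, 34.9 and 46.3, and Krt14 at 82.2, 59.5, 36.5 and 149. In Dll1+ cells 15.2% of all tested genes were called higher and 15.4% lower. In mice 3 and 4 the fibroblast sum was 2.27 and 6.25 times as high in Dll1- as in Dll1+ cells and the pericyte sum 2.54 and 3.56 times, where Ngfr was 1.39 and 6.28 times as high. In the same mice the endothelial sum was 1.74 and 4.02 times and the immune sum 2.21 and 2.20 times as high. The immune step was thus about the same in both mice, which those of Ngfr and Ntf3 (3.36 and 82.6 times) were not. In mice 1 and 2 the fibroblast sum was 1.08 and 1.11 times as high in Dll1- cells, and Ngfr, with 3 to 13 counts, 0.301 and 3.10 times. In Dll1+ cells the fibroblast sum was 3710 and 3849 CPM in mice 3 and 4 and 1250 and 1323 CPM in mice 1 and 2. The Ntf3 ratio between reporters was 0.727 there (exact 95% interval 0.185 to 3.01). Bdnf did not follow these sums within mice, being higher in Dll1+ cells in 4 of 4. The part of stromal, basal or myoepithelial cells in these differences was not tested.

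The Schwann cell list summed to 518 to 833 CPM, but Sox10 (334 to 527 CPM) and Erbb3 (115 to 228 CPM), which mammary epithelial cells also express, made up most of it, and Foxd3 had 0 counts in the 4 PyMT-Dll1GFP libraries. The neuron list summed to 1.57 to 7.83 CPM, with 6 of its 10 genes at 0 counts in some library, among them Snap25 and Th. Of its 4 tested genes, 3 were called higher in PyMT-Dll1mCh than in PyMT-Dll1GFP mice in Dll1- cells (median log2 2.48) and 2 in Dll1+ cells (median log2 1.87), and their part in the differences between reporters was not tested.

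The rest of the pathway was read from 64 listed genes, of which 57 passed the filter. Over the 4 mice the test called 11 of them higher in Dll1+ cells and 3 lower, with a median log2 fold change of 0.10, beside the 6.98% and 7.04% of all tested genes. In PyMT-Dll1GFP mice the counts were 5 and 3, beside 4.29% and 4.84% of all tested genes, and in PyMT-Dll1mCh mice 9 and 7, beside 5.51% and 6.25%. The count over the 4 mice fell to 0 without mouse 2 or mouse 3 and to 1 without mouse 1, and it was 0 without the mouse in the model. The same shares and the same losses apply to the counts over the 4 mice in the lists below.

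Among the other ligands and receptors, 1 of 6 tested genes was called, Sorl1, a sorting receptor related to sortilin (log2 0.37, adjusted p = 0.0144), which was higher in Dll1+ cells of each mouse. Of the 8 genes that process the ligands, Cpe, which trims peptide ends and sorts pro-BDNF, was higher (0.46, adjusted p = 0.0438), and Pcsk6, a proprotein convertase, was lower (-1.13, adjusted p = 0.0200). Pcsk6 went from 33.0, 29.6, 43.7 and 69.3 CPM in Dll1- cells of mice 1 to 4 to 11.1, 10.3, 25.8 and 42.3 CPM in Dll1+ cells.

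Adaptors and effectors of the Trk receptors had 4 genes higher and 1 lower of 17 tested. The higher ones were Frs2 (log2 0.31, adjusted p = 0.0338) and Frs3 (0.61, adjusted p = 0.0476), docking proteins of Trk and FGF receptors, the Ras exchange factor Sos2 (0.27, adjusted p = 0.0325) and Irs1, an adaptor of the insulin receptor (0.77, adjusted p = 0.0189). The lower was Shc2, an adaptor of the Shc family (-1.75, adjusted p = 0.0274), which stood at 5.05 and 12.4 CPM in the Dll1- libraries of mice 3 and 4 at 1.83 and 1.73 CPM in their Dll1+ libraries and at 0.447 to 1.60 CPM in mice 1 and 2. Partners of p75 split, with Sqstm1, the autophagy receptor p62, higher (0.56, adjusted p = 0.0296) and Irak1, a kinase of interleukin-1 signaling, lower (-0.26, adjusted p = 0.0255) of 13 tested.

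Genes known to respond to neurotrophins had 3 of 6 tested members called higher and 0 lower over the 4 mice, beside 6.98% and 7.04% of all tested genes. None of these calls was kept without mouse 2 or without mouse 3. The 3 called genes were the transcription factors Egr1 (log2 0.71, adjusted p = 0.0167), Fos (0.62, adjusted p = 0.0159) and Nr4a1 (0.40, adjusted p = 0.0427), immediate early genes that also answer many other growth factors. Fos stood at 3099 to 5536 CPM in Dll1- and 5472 to 7831 CPM in Dll1+ libraries, and rose in each of the 4 mice. Egr3, another factor of this kind that was named after its values were seen, was called lower in Dll1+ cells of PyMT-Dll1GFP mice (log2 -0.55, adjusted p = 0.0163) and higher in those of PyMT-Dll1mCh mice (0.44, adjusted p = 0.0295), and the difference between reporters had an adjusted p of 0.0545.

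**Figure D5:**
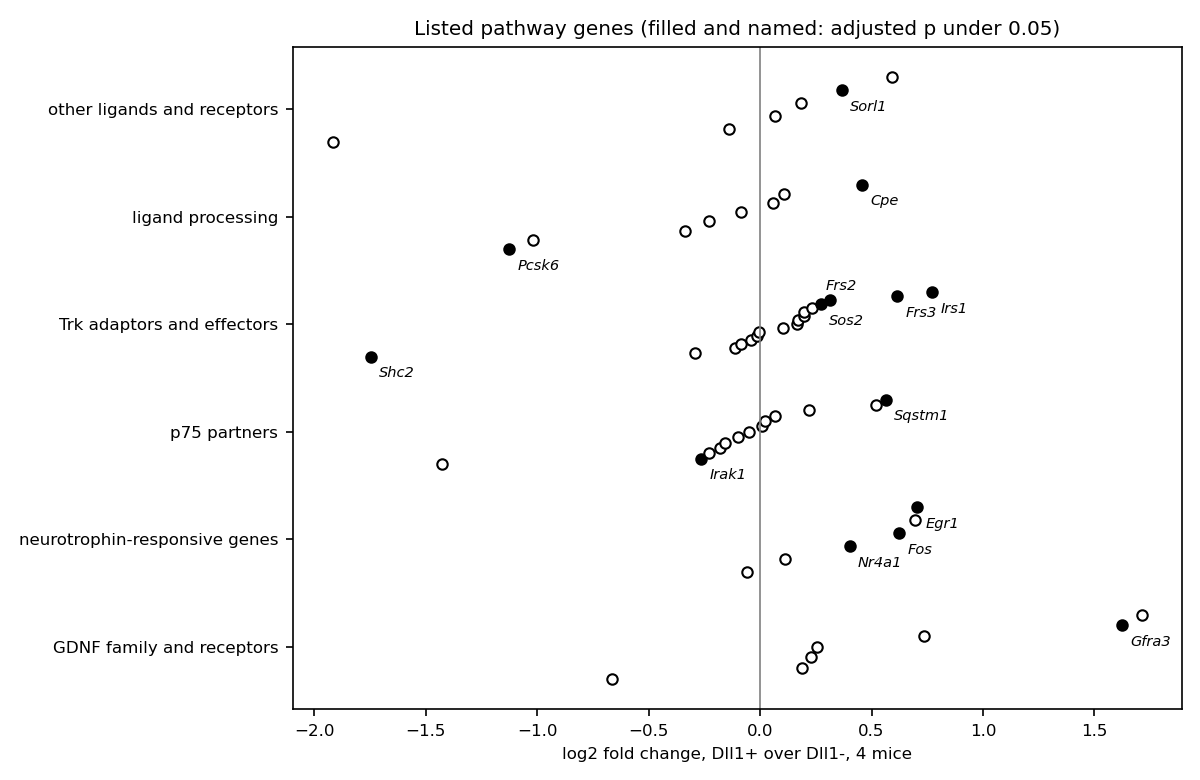
Log2 fold change of Dll1+ over Dll1- cells over the 4 mice (horizontal axis) for the tested genes of 6 pathway lists, 1 point per gene, filled and named where the adjusted p was under 0.05. Of 57 genes 14 are filled, with Shc2 at -1.75 and Gfra3 at 1.62 the farthest from 0 among them.

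Between reporters, 13 of the 57 pathway genes were called higher in PyMT-Dll1mCh mice and 10 lower in Dll1- cells, beside 18.7% and 17.9% of all tested genes. In Dll1+ cells 10 were called higher and 6 lower, beside 15.2% and 15.4%. Genes that process the ligands accounted for 4 of the higher calls in each state. The protease Plat, which activates the plasmin that cleaves pro-BDNF, was 12.8-fold higher in Dll1- cells (adjusted p = 0.00233) and 3.55-fold higher in Dll1+ cells (adjusted p = 0.0192). The Trk adaptors had 5 lower genes in each state, among them Frs2, which fell by 1.10 and 1.05 on the log2 scale (adjusted p = 0.00300 and 0.00568), and Kidins220, a scaffold that binds Trk receptors, which fell by 0.90 and 0.68 (adjusted p = 0.00154 and 0.00488). Plat and Kidins220 were named after their values were seen, and the counts in both states were 0 when either PyMT-Dll1GFP mouse was left out.

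Each tested member was also set beside the 14909 tested genes that averaged 1 CPM or more, by Pearson correlation of log2 CPM over the 8 libraries, which share mice in pairs. The 3 genes most like Ntrk3 were Adgrb2 (r = 0.98), B630019K06Rik (0.98) and Sdk2 (0.97), and those most like Ntf5 were Adra2c (0.96), Scnn1b (0.94) and Basp1 (0.94). For Ngfr they were Icam2, Slc12a4 and Rfx2 (0.99 each), for Bdnf Dok1, Ctdnep1 and Zfp580 (0.99 each), for Ntrk2 Med9, Kptn and Ndufa13 (0.99 each), and for Sort1 Gm20716, D10Wsu102e and Gm48653 (0.99 each). These values are given as a description, with no test.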

How the data were processed

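RNA was measured in 8 libraries of sorted tumor cells from 4 mice. The authors mapped reads with salmon to GENCODE M20 transcripts (GRCm38.p6), summarized them by gene using tximport, and deposited estimated counts that are integers and not normalized. Tool versions and the strand setting are not given in the sources used here. Of the 53697 genes, 53668 matched the GRCm38 annotation used for symbols and coordinates by gene identifier.

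Counts were normalized by TMM and tested with edgeR 4.0.16 (R 4.3.3), by a robust quasi-likelihood F test after filterByExpr on the Dll1+ and Dll1- groups. Dll1 status and mouse were the factors, a second fit gave each reporter its own Dll1 effect and their difference, and another compared reporters in 4 groups without a block. Benjamini-Hochberg adjustment covered all 18322 tested genes, and 0.05 was the threshold. SEs were derived from the F statistic, and log2 CPM had a prior count of 2. P values over 4 mice measure the spread between these mice. Those between reporters count the 2 libraries of a mouse as independent and are not read as such a measure. Nor are those of the fit without the filter on low counts. The scripts were tested on simulated counts.

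Pairs came from the mouse named for each library. Deviations of paired libraries correlated at -0.05 in PyMT-Dll1GFP and 0.55 in PyMT-Dll1mCh mice. Count ratios have exact binomial intervals at 95%, and a gene was called detected from 3 counts. Both cover counting error only.

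All 7 members were named, with every called gene of a pathway list over the 4 mice (up to 5), summed marker lists, and the 3 genes most like each tested member. Members and lists were chosen with earlier results of these data known. Alternatives were RLE factors, DESeq2 1.42.0, the count filter removed or replaced by a minimum of 10 in each library, the mouse block left out, the mouse as a random effect (limma 3.58.1), each reporter or Dll1 state alone, each mouse left out, and the median transcript length. Other data of the study were not used here, and some listed genes are not reported here.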

Additional observations from a re-analysis of the deposited data

Results flagged for a closer look

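Ntf3 stood out in the 4 Dll1+ libraries, where the library of mouse 4 held 0.0180 CPM and the other 3 held 0.0671 to 0.0763 CPM. These values rest on 1 count in mouse 4 and on 2 to 5 counts in the others, and such a gap arises by chance in about 1 of 20 groups (20 groups were examined).

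Ntf3 counts went from 0 and 1 in Dll1- to 2 and 3 in Dll1+ cells of the PyMT-Dll1GFP mice. They went down in both PyMT-Dll1mCh mice, from 32 and 45 to 5 and 1 counts. The ratio of Dll1- to Dll1+ was 0 in mouse 1 (exact 95% interval 0 to 5.21) and 0.517 in mouse 2 (0.00984 to 6.43). Neither of these mice thus showed a direction. The gene did not pass the filter on low counts, so the difference between the reporters was not tested in the reported fit. Fitted by edgeR without the filter, the effect in PyMT-Dll1GFP minus that in PyMT-Dll1mCh mice was 5.44 on the log2 scale (SE 1.65, adjusted p = 0.0389), a value that depends on the prior count. That p value is not read as the spread between mice. In PyMT-Dll1GFP mice alone the effect was 1.83 (SE 1.47, adjusted p = 0.764), so opposite effects are not shown. The markers of fibroblasts and pericytes differed between the same libraries, and their part in the difference was not tested.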

How the results depend on the processing

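The count of members called over the 4 mice was 2, and 0 without the replicate block. In PyMT-Dll1mCh mice it was 2, and 0 without the replicate block or with that reporter fitted alone. Without a filter on low counts 1 member was called in PyMT-Dll1GFP mice (Ntrk3, log2 1.08, adjusted p = 0.0202) and 1 in the difference between reporters (Ntf3). With at least 10 counts in every library, 2 of 4 tested members were called between reporters in Dll1- cells, since Ngfr and Bdnf were not tested there. Leaving out each mouse, which reduces the samples, gave 0 to 2 called members over the 4 mice and in PyMT-Dll1mCh mice, and 0 to 4 between reporters in Dll1- and in Dll1+ cells.

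Over the 4 mice 14 pathway genes were called, 23 with DESeq2, 0 without the replicate block, and 0 to 10 with a mouse left out. In PyMT-Dll1GFP mice the 8 calls became 14 without a filter, 1 without the replicate block and 0 to 12 with a mouse left out. In PyMT-Dll1mCh mice the 16 calls became 0 without the replicate block or with that reporter alone, and 5 to 8 with a mouse left out. The difference between reporters had 0 calls, 10 with DESeq2, 11 without a filter, 1 with at least 10 counts in every library and 0 to 8 with a mouse left out. Between reporters, leaving out a mouse gave 0 to 31 of 23 calls in Dll1- and 0 to 25 of 16 in Dll1+ cells.

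Directions turned only for values that were not called, each with a mouse left out. Over the 4 mice Sort1 ran from -0.044 to 0.074 (log2). In PyMT-Dll1GFP mice Ntrk2 ran from -0.019 to 0.31, Ngfr from -1.60 to 1.72 and Sort1 from -0.23 to 0.082. The difference between reporters ran from -0.23 to 0.10 for Ntrk2, -1.04 to 0.055 for Ntrk3, -0.041 to 3.27 for Ngfr, -0.20 to 0.86 for Bdnf and -0.30 to 0.011 for Sort1. Ntf5 between reporters in Dll1+ cells ran from -0.26 to 0.37. Of 335 alternative values for single members, 277 kept direction and side of the threshold, 38 lost a call, 7 gained one and 13 turned direction. With the median transcript length, Ntrk2, Ntrk3 and Ntf5 came to 29.7, 3.05 and 6.16 CPM per kb. The causes of these changes were not tested. RLE factors changed no call of a member. Ngfr rested on 3 to 13 counts in the PyMT-Dll1GFP libraries.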

Other observations

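The GDNF family, a separate group of neuronal growth factors that signal through Ret and GFRA co-receptors, had 7 of 9 listed genes tested. Gfra3, the co-receptor of artemin, was called higher in Dll1+ cells over the 4 mice (log2 1.62 ± 0.28 SE, adjusted p = 0.0196). It stood at 0.307, 0.139, 0.320 and 0.330 CPM in Dll1- cells of mice 1 to 4 and at 1.15, 0.671, 0.794 and 0.828 CPM in Dll1+ cells, without overlap. These values rest on low counts, 9, 4, 40 and 10 in Dll1- and 33, 30, 52 and 46 in Dll1+ cells. The other genes here were chosen after their values were seen. Artn, the ligand of Gfra3, stood at 0.201 to 1.40 CPM over the 8 libraries (log2 0.74, adjusted p = 0.381), and Ret at 3.34 to 9.00 CPM (log2 0.19, adjusted p = 0.580).

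Gfra4 was measured at 0.409 and 0.451 CPM in Dll1- cells of mice 1 and 2 and at 3.49 and 4.76 CPM in their Dll1+ cells, against 2.48 and 1.32 and then 2.38 and 2.72 CPM in mice 3 and 4. Over the 4 mice the difference did not pass the threshold (log2 1.71 ± 0.67 SE, adjusted p = 0.152). It was called higher in PyMT-Dll1GFP mice (log2 3.24 ± 0.38 SE, adjusted p = 0.00728) and not in PyMT-Dll1mCh mice (0.45 ± 0.32 SE, adjusted p = 0.396), while the difference between reporters had an adjusted p of 0.108. Gfra1 went from 20.2 and 24.9 to 7.04 and 12.0 CPM in mice 1 and 2 and from 27.6 and 18.8 to 25.7 and 17.9 CPM in mice 3 and 4 (over the 4 mice, log2 -0.66 ± 0.28 SE, adjusted p = 0.176). It was called lower in PyMT-Dll1GFP mice (log2 -1.27 ± 0.14 SE, adjusted p = 0.00574) and not in PyMT-Dll1mCh mice (-0.09 ± 0.13 SE, adjusted p = 0.699), and the difference between reporters had an adjusted p of 0.0879.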
